A study of Mus musculus with 11 samples.

Results

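Mitochondria carry their own circular genome (mtDNA), and a small set of nuclear genes copies it. The 10 genes described here are Polg, Polg2, Twnk (listed under its older symbol Peo1), Ssbp1, Tfam, Polrmt, Top1mt, Rnaseh1, Dna2 and Lig3. They were chosen by their known role in mtDNA replication, not by their values, although earlier results of these data were known. They are 10 of the 36666 genes in the count table. All 10 were found and all 10 passed the filter on low counts.

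The mRNA was measured by poly(A) RNA-seq in the cerebrum of 11 male C57/Bl6 mice, all 1 year old. The 7 mutator mice are homozygous for the proofreading-deficient Polg allele D257A, a knock-in present in every tissue. The 4 control mice comprised 3 WT/WT animals and 1 WT/D257A animal, which is heterozygous for the allele and is shown on its own beside the others. Each library came from 1 mouse.

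Polg encodes the catalytic subunit of DNA polymerase gamma, which both synthesises mtDNA and removes misincorporated bases with its own exonuclease. Polg2 encodes the accessory subunit that holds it on the template. Twinkle (Twnk) is the helicase that opens the duplex ahead of the polymerase, and the single-stranded DNA binding protein (Ssbp1) covers the exposed strand. Polrmt makes the RNA primers, Tfam packages mtDNA and starts transcription, and the topoisomerase Top1mt, the nucleases Rnaseh1 and Dna2 and the ligase Lig3 relieve torsion, remove primers and seal the nicks.

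The allele D257A replaces an aspartate in the exonuclease domain of Polg. In the mm9 mouse genome with GENCODE gene models, Polg lies on the minus strand of chromosome 7 from 86593677 to 86611248. The D257A codon falls in exon 3 of all 3 coding transcripts, at 86606617 to 86606619. The reference sequence around it, chr7:86606605-86606631 on the minus strand, is shown because it is the site that distinguishes the groups, with the D257A codon in capitals:
Polg D257A codon: aatgtttcctttGACcgagcccatatc

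The counts hold no bases, so the mutant allele itself could not be read from them. Gene counts totalled 28249345 to 121182250 in the control libraries and 37821243 to 91219204 in the mutator libraries. In mutator replicate 6, the gene counts were 3.00 times the aligned reads listed for it, against 0.744 to 0.775 in the other 10 libraries. Neuron, astrocyte and oligodendrocyte markers were abundant in every library, with summed levels of at least 4864, 2936 and 4079 counts per 1000000 (CPM) respectively. The neuron marker Rbfox3 was not analysed here. Red blood cell markers were also present, at a summed 57.5 to 198 CPM in controls and 89.7 to 256.9 CPM in mutators. In whole tissue, fewer cells of a type and less mRNA per cell cannot be told apart.

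The first comparison asked whether the mRNA of the replication machinery differed between mutator and control brains. None of the 10 genes passed an adjusted p of 0.05 when edgeR (quasi-likelihood, Benjamini-Hochberg) was run over all 17983 genes tested, of which 1.24% passed. None of the 10 reached an unadjusted p of 0.05 either, a level that 15.8% of all genes reached, and in none did the 7 mutators lie wholly outside the 4 controls, as 2.62% of all genes did. DESeq2 also passed none of the 10, beside 3.94% of the 15770 genes it adjusted, and placed 1, Tfam, at an unadjusted p of 0.05, beside 17.8%. The fitted level was higher in mutators for 3 genes and lower for 7, with a median log2 fold change of -0.05 beside 0.0014 for all genes tested. The 95% intervals of the 10 changes ran from -0.49 to 0.28 on the log2 scale, or from 0.712 to 1.22 times the control level, and all 10 lay within 0.5 of no change. The summed level of the 10 genes was 217 to 225 CPM in the controls and 213 to 222 CPM in the mutators.

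**Figure D1:**
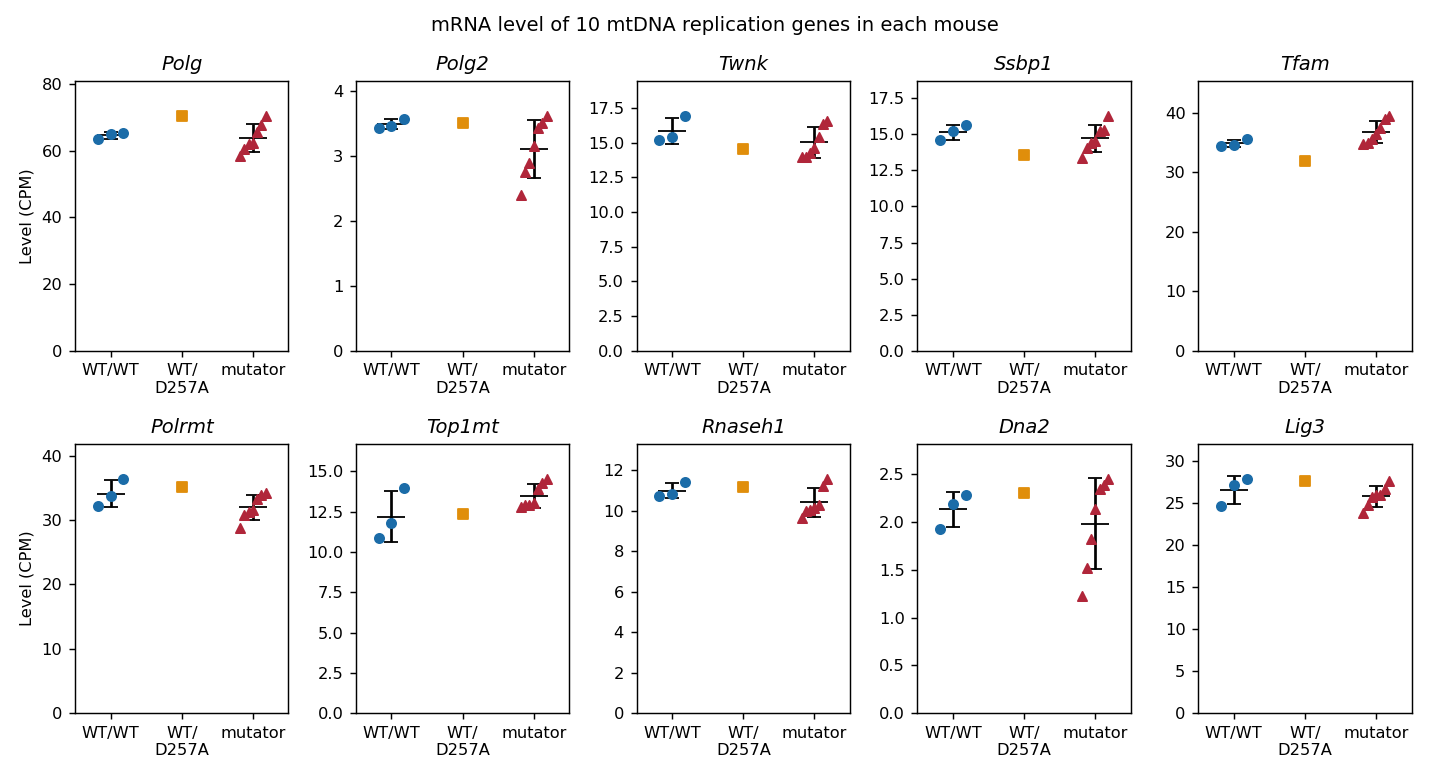
mRNA level in CPM (y axis, from 0, scaled by library size) of each replication gene in 3 WT/WT, 1 WT/D257A and 7 mutator mice, with 1 point per mouse and bars for the mean ± SD of WT/WT and mutator mice. The mutators overlap the controls for all 10 genes, and the spread of the mutators is widest relative to the mean for Dna2 and Polg2.

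Polg itself was measured at 63.5, 65.0 and 65.4 CPM in the WT/WT mice. The WT/D257A mouse had 70.4 CPM, the highest of the 11. The mutators ran from 58.5 to 70.3 CPM with a median of 62.4. The mutators thus spanned the whole WT/WT range, and 4 of 7 fell below the lowest control. The means were 66.1 ± 2.98 CPM (SD, n = 4) in controls and 63.9 ± 4.18 CPM (n = 7) in mutators. The log2 fold change was -0.05 (SE 0.053, 95% interval -0.16 to 0.06, edgeR adjusted p = 0.707). The interval thus spans 0.896 to 1.04 times the control level of Polg mRNA. With the WT/D257A mouse left out, the change was -0.015 (edgeR adjusted p = 0.961), and leaving out each mouse in turn gave -0.072 to -0.015.

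The accessory subunit gene Polg2 was far less abundant. Its level was 3.57, 3.43 and 3.45 CPM in the WT/WT mice, 3.50 CPM in the WT/D257A mouse, and 2.39 to 3.60 CPM in the mutators with a median of 3.15. The mutators scattered more widely than the controls, with a coefficient of variation of 14.4% against 1.76%, and 5 of 7 lay below the lowest control. Counting error alone gives 7.80% in mutators and 7.76% in controls at these counts, so the control spread was narrower than counting noise. The log2 fold change was -0.16 (SE 0.12, 95% interval -0.42 to 0.09, edgeR adjusted p = 0.546).

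At the fork, the helicase gene Twnk ran from 14.6 to 16.9 CPM in controls and from 13.95 to 16.6 CPM in mutators, a log2 difference of -0.04 (SE 0.069, edgeR adjusted p = 0.811). Ssbp1, the strand-binding partner of the helicase, averaged 14.8 CPM in controls and 14.7 CPM in mutators, a difference of 0.0018 (SE 0.067, edgeR adjusted p = 0.994). The sign of the Ssbp1 value turned to -0.03 when the WT/D257A mouse was left out. Of the 7 mutators, 4 lay inside the control range for Twnk and 5 for Ssbp1.

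Tfam and Polrmt, which start mtDNA transcription and provide the primers, had changes of opposite sign, and neither passed the test. Tfam stood at 34.5, 34.7 and 35.5 CPM in the WT/WT mice, 32.0 CPM in the WT/D257A mouse, and 34.8 to 39.5 CPM in the mutators with a median of 36.4. All 7 mutators were above the control mean and 5 were above the highest control. The WT/D257A mouse was the lowest of the 11. The log2 fold change was 0.11 (SE 0.053, 95% interval -0.0014 to 0.22, edgeR adjusted p = 0.323). It was 0.08 without the WT/D257A mouse.

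Polrmt, the mitochondrial RNA polymerase, stood at 32.2, 33.7 and 36.4 CPM in the WT/WT mice and 35.1 CPM in the WT/D257A mouse. The mutators ran from 28.8 to 34.2 CPM with a median of 31.5, and all 7 were below the control mean, 4 of them below the lowest control. The log2 fold change was -0.10 (SE 0.056, 95% interval -0.22 to 0.01, edgeR adjusted p = 0.391).

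Top1mt, which relaxes supercoils in mtDNA, had the largest positive value of the 10. It stood at 13.9, 11.8 and 10.8 CPM in the WT/WT mice, 12.4 CPM in the WT/D257A mouse, and 12.8 to 14.5 CPM in the mutators with a median of 13.0. The mutators were tightly grouped and all above the control mean, but WT/WT replicate 1, the most deeply sequenced library, lay among them. The log2 fold change was 0.13 (SE 0.073, 95% interval -0.02 to 0.28, edgeR adjusted p = 0.405), and 0.20 without that control, where the adjusted p was 0.159.

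None of the processing enzymes passed the test. Rnaseh1, which degrades the RNA strand of RNA:DNA hybrids, averaged 11.0 CPM in controls and 10.4 CPM in mutators, with 5 of 7 mutators below the lowest control (log2 fold change -0.08, edgeR adjusted p = 0.618). Lig3, the only DNA ligase of mitochondria, averaged 26.8 CPM in controls and 25.8 CPM in mutators, with 6 of 7 mutators inside the control range (-0.06, edgeR adjusted p = 0.664). Dna2, a nuclease and helicase that trims flaps, was the scarcest member at 2.17 CPM in controls and 1.98 CPM in mutators. It had 53 to 267 reads per library and the widest interval, with a mutator coefficient of variation of 23.9% beside 9.91% from counting alone (log2 fold change -0.13, SE 0.17, edgeR adjusted p = 0.755).

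**Figure D2:**
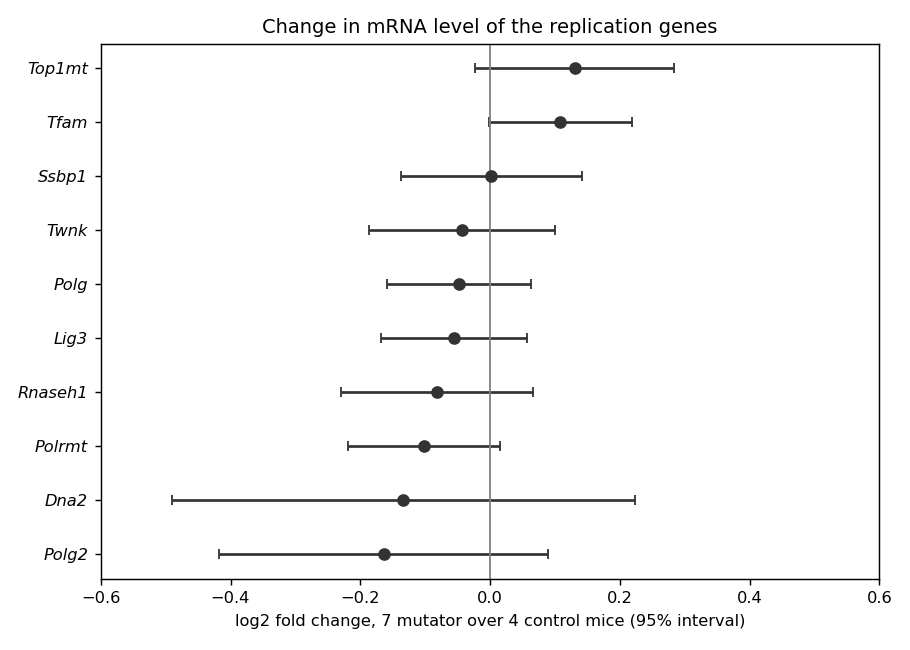
log2 fold change of each replication gene in 7 mutator over 4 control mice (x axis) with its 95% interval from edgeR's quasi-likelihood fit, ordered by size. Each of the 10 intervals includes 0, from Polg2 at -0.16 to Top1mt at 0.13, and Dna2 has the widest.

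The single WT/D257A mouse lay inside the WT/WT range for 5 of the 10 genes and inside the mutator range for 6. It was above both groups for Polg and below both for Tfam. One animal gives no measure of spread for this genotype, and no test was made of it.

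Levels of different genes can be compared only per length. As CPM divided by the kilobases of annotated exon (RPKM), the order of medians over the 11 mice was Polg (9.49), Tfam (8.01), Polrmt (7.09) and Top1mt (6.78), then Ssbp1 (4.40), Rnaseh1 (4.35) and Twnk (4.21), then Lig3 (3.57), Polg2 (0.787) and Dna2 (0.371). Neighbours within the first 4 and within the next 3 overlapped in range over the mice, while the 3 last genes were each separate from the gene before. The order depends on the length used: with the transcript that has the longest coding sequence, Ssbp1 moved to the second place at 13.7 RPKM behind Polg at 15.9, and Polg2 (2.28) and Dna2 (0.530) stayed last.

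Because the subunits and partners of the polymerase work together, their counts were also set against those of Polg within each library, which needs no scaling between libraries. Tfam reads were 53.4% to 54.4% of Polg reads in the WT/WT mice, 45.5% in the WT/D257A mouse, and 49.6% to 64.1% in the mutators with a median of 57.5%. The mutators both spread more and reached higher, with 4 of 7 above the highest control. The mean was 51.9% ± 4.31 in controls and 57.9% ± 5.61 in mutators, a difference of 0.16 in log2 ratio (2-sided exact permutation p = 0.121, 0.485 after adjustment over the 4 ratios). The smallest p that 4 against 7 mice allow is 0.00606.

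The other 3 ratios also did not pass. Polg2 reads were 5.29% ± 0.263 of Polg reads in controls and 4.86% ± 0.680 in mutators (log2 difference -0.13, exact permutation p = 0.261, adjusted p = 0.521). Twnk reads were 23.5% and 23.6% of Polg reads (0.0023, exact permutation p = 0.970, also 0.970 adjusted). Ssbp1 reads were 22.4% and 23.1% (0.05, exact permutation p = 0.491, adjusted p = 0.655). The sign of the last 2 turned negative with WT/WT controls only.

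**Figure D3:**
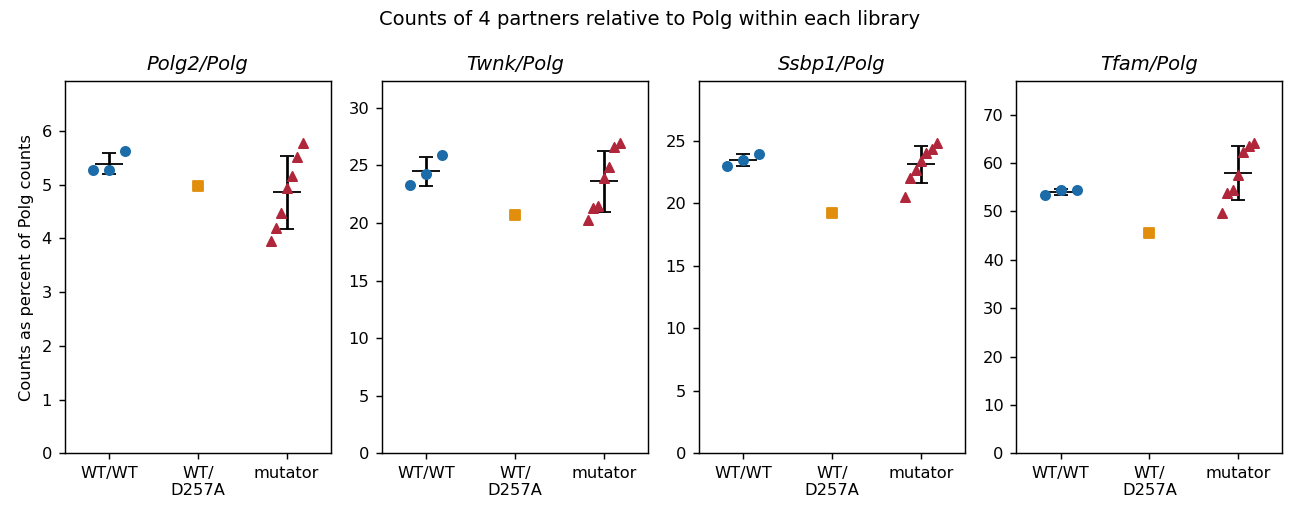
Counts of Polg2, Twnk, Ssbp1 and Tfam as a percent of Polg counts (y axis, from 0) in the same library, with 1 point per mouse and bars for the mean ± SD of WT/WT and mutator mice. The WT/D257A mouse has the lowest Tfam ratio of the 11 at 45.5%, while the mutators reach 64.1%.

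Counts per exon bin, the non-overlapping pieces into which annotated exons are divided, were analysed for the 3 WT/WT and 7 mutator mice. They ask whether any piece of a gene is used more or less than the rest of it. Of 269 bins in the 10 genes, 174 had enough reads to be tested, and none of the 36 Dna2 bins did. None of the 174 passed an adjusted p of 0.05 in edgeR's exon usage test, where 0.0237% of all 206930 bins passed, and none did in limma's, where 0.0121% passed. At an unadjusted p of 0.05 there were 4 bins, or 2.30%, beside 1.9% of all bins (7 bins in limma, where 2.69% of all bins reached it), namely bin 53 of Polg, bin 43 of Polrmt and bins 17 and 22 of Lig3.

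The bin with the smallest p in Polg was the one that holds the D257A codon. Bin 53 spans 196 bases of exon 3, from 86606584 to 86606779. Its share of all Polg bin counts was 2.84%, 3.04% and 3.18% in the WT/WT mice, and 2.31% to 2.62% in the mutators with a median of 2.56%. Every mutator lay below every WT/WT mouse, with mean shares of 3.02% ± 0.171 (n = 3) in WT/WT mice and 2.51% ± 0.121 (n = 7) in mutators. Across all tested bins, 0.682% were lower in all 7 mutators than in all 3 WT/WT mice. The difference gave a 2-sided exact permutation p of 0.0167, the smallest that 3 against 7 mice allow, before any adjustment for the number of bins.

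In the model of usage, bin 53 changed by -0.25 on the log2 scale (SE 0.11, edgeR adjusted p = 1.00 over all bins), so it did not pass the test. Leaving out each mouse in turn gave -0.31 to -0.23. It rests on 71 to 271 reads per mouse. The reads were aligned to a reference that carries the wild-type codon, and the part this had in the lower count was not tested. No exon of the opposite-strand gene Fanci lies in bin 53.

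Among the 50 tested Polg bins, only bins 39 and 53 separated the groups completely, and bin 39, of 3 bases, was higher in mutators (1.26% and 1.51% of Polg bin counts, edgeR adjusted p = 1.00). Bin 53 alone of the 50 was at an unadjusted p of 0.05. By class, coding bins held 85.3% ± 0.857 of Polg bin counts in WT/WT mice and 85.1% ± 0.657 in mutators (2-sided exact permutation p = 0.717), bins that are partly or wholly untranslated 9.41% and 9.24% (exact permutation p = 0.800), and bins of other transcripts 5.34% and 5.67% (exact permutation p = 0.517).

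**Figure D4:**
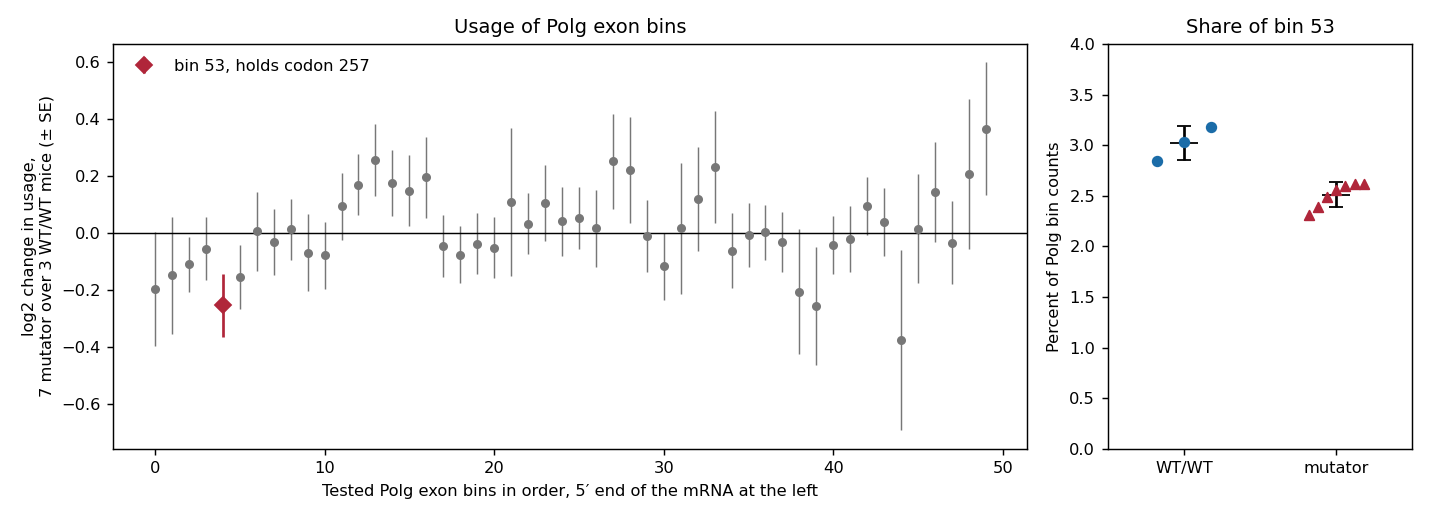
Left, log2 change in usage ± SE (y axis) of the 50 tested Polg exon bins in mRNA order from the 5′ end (x axis), in 7 mutator over 3 WT/WT mice, with the bin holding the D257A codon marked. Right, the share of Polg bin counts in that bin (percent, from 0) with 1 point per mouse and the mean ± SD, where the mutators lie at 2.31% to 2.62% and the WT/WT mice at 2.84% to 3.18%.

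In the other members the bin with the smallest p was in Lig3, where bin 17 held 2.31% ± 0.191 of Lig3 bin counts in WT/WT mice and 3.32% ± 0.441 in mutators (log2 usage 0.54, SE 0.16, edgeR adjusted p = 1.00 and limma adjusted p = 0.581). The log2 usage of bin 22 of Lig3 was 0.38 and that of bin 43 of Polrmt 0.24, neither passing adjustment. The largest change by size was in bin 31 of Polrmt, at -0.60 (SE 0.31, edgeR adjusted p = 1.00) on 4 to 23 reads per mouse. These bins were picked after their values were seen. The Lig3 bins could not be placed in the genome, since the gene models used here give 50 Lig3 bins and the deposited counts have 37. Across the 174 tested bins, 5 separated the groups completely, beside 1.4% of all bins.

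By position, the members other than Polg lie on chromosomes 6 (Ssbp1), 10 (Tfam, Polrmt and Dna2), 11 (Polg2 and Lig3), 12 (Rnaseh1), 15 (Top1mt) and 19 (Twnk). The exons of 5 members share bases with a gene on the opposite strand, namely Polg with Fanci (12.5% of exon bases), Lig3 with Rffl (25.1%), Top1mt with Gm15945 (4.99%), Polg2 with Gm885 (3.03%) and Twnk with Mrpl43 (2.69%). The library kit does not mark strand, so reads in those bases cannot be assigned to one gene, and these values carry that uncertainty. Polg bins 6, 7 and 8, of 78, 2 and 59 bases, lie wholly in bases shared with Fanci. They had 0 counts in every mouse analysed for bins. The annotated exon lengths used for RPKM include the shared bases, and how far the gene counts left out such reads was not tested.

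Genes whose profile over the 11 mice was nearest to that of Polg were Wdr59, Ift122 and Cenpt, with root mean square differences of standardized log2 level of 0.323, 0.413 and 0.436, beside a median of 1.35 over all genes. Of the other members, Lig3 was the nearest at 0.799, rank 216 of 17982. Tfam was among the least similar, at 1.69.

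The 77 other genes around the machinery fell into 7 lists, all measured and all tested. None passed the adjusted threshold in edgeR or DESeq2, and DESeq2 placed 8 at an unadjusted p of 0.05, beside 17.8% of all genes in DESeq2. In edgeR there were 9 at that level, or 11.7%, beside 15.8% of all genes, 5 higher and 4 lower, with a median log2 fold change of 0.01 over the 77. The 3 of 77 whose mutators lay wholly outside the controls, as 2.62% of all genes did, were Hspa9, Gabpb1 and Mcm5.

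Other nucleases, helicases and primases of mtDNA were higher in 4 of 8 and lower in 4 of 8, with none at an unadjusted p of 0.05. Endog, a mitochondrial nuclease, averaged 5.65 CPM in controls and 4.85 in mutators (log2 fold change -0.22, edgeR adjusted p = 0.344). Recql4, a helicase, was at 2.61 and 2.27 CPM (-0.21, edgeR adjusted p = 0.473). Of 8 mtDNA transcription genes 7 were higher by value and none at an unadjusted p of 0.05. Their lowest p values belonged to Mterf2 (12.5 and 13.8 CPM, log2 fold change 0.13, edgeR adjusted p = 0.360) and Mterf3 (14.3 and 15.1 CPM, 0.07, edgeR adjusted p = 0.648), both of the family that binds mtDNA around transcription.

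Among 8 nucleoid genes, whose products sit with mtDNA in its protein complexes, 5 were higher and 3 lower by value. Hspa9, the chaperone of the mitochondrial matrix, ran from 214 to 238 CPM in controls and from 239.7 to 256.9 CPM in mutators, so that all 7 mutators exceeded every control (log2 fold change 0.11, SE 0.042, edgeR adjusted p = 0.178). Clpx, the unfoldase of the ClpXP protease, averaged 33.3 and 36.2 CPM (0.12, edgeR adjusted p = 0.265), with 5 of 7 mutators above the highest control.

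Of 19 genes listed around the deoxynucleotide supply of mitochondria, whether they add to it or draw on it, 11 were higher and 8 lower by value. In edgeR, 1 of the 19 reached an unadjusted p of 0.05. That gene was Rrm2b, the p53-inducible small subunit of ribonucleotide reductase that serves resting cells, at 43.8 and 48.6 CPM (log2 fold change 0.15, SE 0.054, edgeR adjusted p = 0.183). Slc25a36, a pyrimidine nucleotide carrier, was at 79.9 and 84.2 CPM (0.07, edgeR adjusted p = 0.433). Of 11 base excision repair genes 9 were lower by value. Polb, the repair polymerase, was at 30.1 and 27.3 CPM (-0.14, edgeR adjusted p = 0.307), and Neil2, a glycosylase, at 1.66 and 1.98 CPM (0.24, edgeR adjusted p = 0.459).

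The nuclear regulators of mitochondrial biogenesis were higher in 6 of 9 by value. Gabpa, the DNA-binding subunit of nuclear respiratory factor 2, stood at 25.7 ± 1.11 CPM in controls and 29.1 ± 2.70 in mutators, with 6 of 7 mutators above the highest control (log2 fold change 0.17, edgeR adjusted p = 0.203). Its partner Gabpb1 was higher in all 7 mutators than in every control (16.6 and 18.1 CPM, log2 fold change 0.13, edgeR adjusted p = 0.248). The nuclear receptor Esrra was at 58.1 and 53.4 CPM (-0.12, edgeR adjusted p = 0.235). Nrf1, an activator of many respiratory genes, was at 18.3 and 17.5 CPM (-0.06, edgeR adjusted p = 0.667), and Ppargc1a, the coactivator of biogenesis, at 64.6 and 68.4 CPM (0.08, edgeR adjusted p = 0.431).

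Genes of nuclear DNA replication, listed together with nuclear counterparts of members, were set beside the mitochondrial set, and 8 of 14 were higher and 6 lower by value. Mcm5, a subunit of the replicative helicase, was lower in all 7 mutators than in every control, at 5.80 and 4.89 CPM (log2 fold change -0.25, SE 0.096, edgeR adjusted p = 0.206). Pold1, the catalytic subunit of polymerase delta, was at 8.53 and 7.23 CPM (-0.23, edgeR adjusted p = 0.225). The nuclear counterparts of 3 members did not pass either, with log2 fold changes of 0.14 for Top1, -0.03 for Lig1 and -0.05 for Rnaseh2a (adjusted p = 0.342, 0.906 and 0.768 from edgeR).

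**Figure D5:**
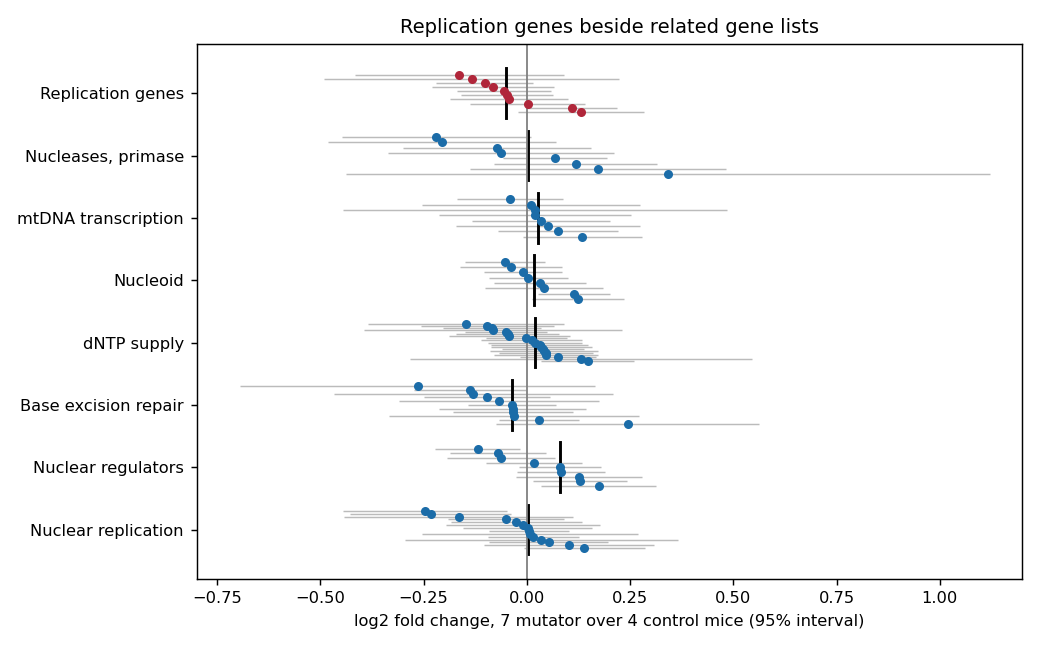
log2 fold change of every gene in 7 mutator over 4 control mice (x axis) with its 95% interval, for the 10 replication genes and 7 related lists, with 1 point per gene and a black bar at each list's median. The medians run from -0.05 for the replication genes to 0.08 for the nuclear regulators.

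Marker lists of cell types were read in the same fit, where no marker passed adjustment and 15.8% of all genes reached an unadjusted p of 0.05. At that level were 3 of 4 microglia markers, all lower, and none of 5 red blood cell markers, which were all higher by value. The other lists were mixed. Of 4 endothelial markers 2 were higher and 1 lower at that level, of 4 astrocyte markers 1 was higher and 1 lower, and 2 of 4 oligodendrocyte markers, 1 of 4 neuron markers and 1 of 4 choroid plexus markers were lower. The smallest adjusted p values were 0.0558 for the myelin gene Mag (log2 fold change -0.31) and 0.0615 for the endothelial receptor Flt1 (0.36), both from edgeR. Within the same lists, the myelin gene Mbp was at 0.13 and the endothelial transporter Slco1a4 at -0.15, on the same scale. The part of cell composition in the values of the replication genes was not tested.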

How the data were processed

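RNA from the cerebrum of 11 mice was sequenced as paired reads of 100 bases. Per the labels and the study's methods, the authors aligned reads to mm9 with TopHat2 2.0.6 and Bowtie2 2.0.2.0, and counted them with HTSeq 0.5.3p9 on Ensembl release 61. The deposited values used are raw counts per gene and per exon bin. Whether counting used strand is not given in the sources used here. No deposited column was left unmapped.

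Gene counts were filtered with filterByExpr, scaled by TMM and tested with edgeR 4.0.16 (quasi-likelihood, robust), 7 mutator against 4 control mice, with Benjamini-Hochberg adjustment over 17983 genes. CPM are counts per 1000000 of scaled library size. Usage of exon bins was tested by diffSpliceDGE of edgeR, and again with limma 3.58.1, in 7 mutator against 3 WT/WT mice, because bin counts of the WT/D257A mouse were not analysed here. Ratios to Polg were compared by 2-sided exact permutation over the 330 splits of mice. RPKM used annotated exon length. The threshold was 0.05. R 4.3.3 and DESeq2 1.42.0 were also used. The scripts were tested on simulated data.

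Bin positions came from GENCODE gene models on mm9, of a later Ensembl release than the counting; the number of bins matched for 9 of 10 members.

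Named genes were all members, the bin with the D257A codon, fixed regulators and nuclear counterparts, and in each list the 2 lowest p values where fewer than 2 genes passed. Gabpb1, individual markers of cell types, bin 39 of Polg and the Polrmt and Lig3 bins were named after their values were seen. Members and lists were chosen with earlier results of these data known. The labels name separate mice, and replicates are numbered only in accession order. Alternatives covered the test, scaling, filter, control group, depth and leaving out each mouse.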

Additional observations from a re-analysis of the deposited data

Results flagged for a closer look

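Tfam counts as a percent of Polg counts were flagged because 1 of the 4 control mice stood far from the others. The WT/D257A mouse had 45.5%, beside 53.4% to 54.4% in the 3 WT/WT mice, and the gap to the nearest was 0.888 of the whole range of the controls. It was 1 of 28 groups examined this way, where chance flags about 1 in 20, or 1.4 of 28. Without this mouse, the difference in log2 ratio of Tfam to Polg was 0.09, against 0.16 with it. Whether the value belongs to the genotype or to the animal cannot be told apart with 1 mouse.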

How the results depend on the processing

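The count of replication genes passing the adjusted threshold was 0 under all 19 alternatives, as was that of the 77 other genes. Among the 19, the fit with WT/WT controls only is the same as the fit without the WT/D257A mouse. The count of exon bins of the replication genes passing was 0 under all 13 alternatives. The lowest adjusted p among the members was 0.159, for Top1mt without WT/WT replicate 1, and among the others 0.0515, for Gabpa without mutator replicate 1. With WT/WT controls only, 4 values near 0 changed sign, namely the log2 fold change of Ssbp1 to -0.035 and of Lig1 to 0.0043, and the log2 ratio to Polg of Twnk to -0.058 and of Ssbp1 to -0.024. Leaving out each mouse in turn gave -0.035 to 0.028 for Ssbp1, -0.066 to 0.0043 for Lig1, -0.058 to 0.049 for Twnk/Polg and -0.024 to 0.081 for Ssbp1/Polg. No other result followed through the alternatives changed direction or side of the threshold. Cell type markers, Gabpb1, the Polg bin classes and single bins other than bin 53 of Polg were not followed one by one. The length of the coding transcript, an alternative chosen after seeing the data, moved 8 of 10 RPKM levels. Counting error was largest for Dna2 and Polg2, and their mutators spread beyond it. No paired analysis was made. The paper describes the controls as littermates of the mutators, but the labels used here give neither the litter nor the sequencing pool of each mouse.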
